A study of Mus musculus with 6 samples.

Results

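The subject here is a set of short RNA fragments from the 5′ end of valine tRNAs in mouse heart, in mice with and without the tRNA-processing enzyme ELAC2. The rule for the set uses sequence and length, anchored on a fragment already known to differ between the groups, tRF_5_112: it takes every deposited tRNA fragment of class tRF_5 with a length of 35 nt or less with the same first 5 nt. It holds 58 sequences, of 430 5′ fragments of that length and 1336 fragment sequences in all. Hearts of 3 knockout mice, whose titles give both loxP-flanked Elac2 alleles plus cre (L/L, cre) and whose genotype label is Elac2 -/-, were compared with hearts of 3 control mice, which carry the same loxP-flanked alleles without cre (L/L) although their genotype label reads Elac2 +/+. All 6 mice were on a C57BL/6 background, and no age or sex is used here. Cre came from a muscle creatine kinase promoter, so the deletion is directed to striated muscle, whereas RNA was taken from crude heart, which also holds other cells. Hearts were sequenced with 4 technical replicates per mouse, and each mouse has 1 deposited column. Each column comes from a of small RNA, size-selected for 15 to 35 nt.

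Transfer RNAs carry amino acids to the ribosome, and those for valine read codons through the anticodons CAC, AAC and TAC. ELAC2 is the RNase Z that removes the 3′ trailer from tRNA precursors, both nuclear and mitochondrial. Fragments from the 5′ end of mature tRNAs arise when a nuclease cuts in the D arm or in and around the anticodon loop, and they are known as 5′ tRFs and the longer ones are also called tiRNAs. In bulk tissue a lower value can come from fewer cells of a type or from less RNA per cell, and these cannot be told apart.

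The fragments were placed on a valine tRNA gene, since the variants among them turn on a few bases of it. The gene n-TVcac9 lies at chr13:23446142-23446214 on the minus strand (GRCm38.p6, RefSeq, read from a RefSeq promoter window that holds the whole gene), and it is shown with its anticodon in capitals because every member is described by its position in it.
n-TVcac9: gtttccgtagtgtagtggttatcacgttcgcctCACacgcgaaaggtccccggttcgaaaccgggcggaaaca
Counted from 1 at the 5′ end, bases 27 to 31 pair with bases 39 to 43 in a stem of 5 pairs, bases 32 to 38 form the loop, and the anticodon is at bases 34 to 36. Fragments of 32 nt or more therefore end in the anticodon loop, fragments of 27 to 31 nt end in the stem before it, and those of 26 nt or less end before the stem. RefSeq lists 22 valine tRNA genes on this assembly, 11 with anticodon CAC, 8 with AAC and 3 with TAC, and 10 of them lie on chromosome 13. The sequence of the other genes was not used here, so no fragment is traced to 1 gene copy.

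The members that carry the results are shown with capitals at each base that differs from n-TVcac9, and the difference is written with the gene's base first.
tRF_5_335: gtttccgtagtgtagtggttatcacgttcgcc
tRF_5_242: gtttccgtagtgtagtggttatcacgttc
tRF_5_334: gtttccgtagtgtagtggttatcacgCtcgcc
tRF_5_332: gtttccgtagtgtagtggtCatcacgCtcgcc
tRF_5_239: gtttccgtagtgtagtggtCatcacgCtc
tRF_5_112: gtttccgtagtgtagtggtCatc
tRF_5_333: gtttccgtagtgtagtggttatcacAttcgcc
tRF_5_114: gtttcTgtagtgtagtggttatc
tRF_5_331: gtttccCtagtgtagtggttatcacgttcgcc
By their first 8 nt the members fall into 3 groups. The start of n-TVcac9 itself is carried by 36 members with 19236 counts over the 6 libraries, the start with C6T by 16 members with 202 counts, and the start with G7C by 6 members with 32 counts. Within the first group, 7 members equal the gene over their whole length and took 16761 of the 19470 counts of all members. The rest of that group comprised 14 members with T20C, 5 with T27C but not T20C, 7 with G26A, 2 with T22G and 1 that differed only at the anticodon, by C34A. All 8 members with T20C that reach base 27 also carry T27C.

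The label valine was checked in the 17 longer tRF_5 sequences with the same 5-nt start. Letters 34 to 36 read CAC in 15 of them, with 2422 counts, and AAC in 2, with 3 counts, and both are valine anticodons. Only 1 of the 17, with 1 count, covers the whole anticodon hairpin. The longer sequences included variants with T27C, with T20C and T27C, with C6T and with G7C, but none with G26A or T22G, so for those 2 variants the anticodon was not read. For the variants that were read it rests on few counts. The sequence with T20C and T27C had 2 counts, and each of the other variant sequences had 8 or fewer. The commonest longer sequence, with 1536 counts, matches n-TVcac9. Each of the 7 members that reach base 34 has there the base of CAC (4 members, 391 counts) or of AAC (3 members, 49 counts).

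Valine fragments took a larger share of the tRNA fragment reads in knockout hearts. They numbered 2029, 1890 and 3251 counts in the knockout libraries and 2573, 5472 and 4255 counts in the control libraries, out of total tRF counts of 45354 to 61712 in the knockout and 235046 to 773252 in the control. That is 4.35% ± 0.836 of the tRF count in knockout hearts and 0.975% ± 0.232 in control hearts (SD, n = 3 each), and each knockout library lay above each control library. In the same libraries, as a share of all 5′ fragments up to 35 nt the values were 5.39% ± 0.686 in the knockout and 1.165% ± 0.131 in the control (SD, n = 3 each). On the scale that sets the bulk of fragments equal between libraries (TMM, a trimmed mean of ratios; CPM, the count scaled to a common library total), the summed valine level was 15362, 16669.8 and 28889.9 CPM in the knockout and 10857, 33085 and 28219 CPM in the control, and the groups overlapped. Scaled by library totals alone, all tested sequences had a median log2 fold change of 2.15, against 0.06 with TMM. Ratios between 2 fragments inside 1 library, used below, do not depend on this choice.

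Of the 58 members, 19 passed the filter on low counts, and of these 10 rose and 1 fell in knockout hearts (edgeR quasi-likelihood test with TMM scaling, Benjamini-Hochberg adjusted p under 0.05 over all 254 sequences tested). Over all tested sequences 15.7% were called higher and 16.9% lower, and over the 102 other tested 5′ fragments up to 35 nt 15.7% were called higher and 28.4% lower. The median log2 fold change was 1.85 for the 19 members, 0.06 for all tested sequences and −0.59 for the other short 5′ fragments. In 12 of the 19 the CPM of the 2 groups did not overlap, against 43.7% of all tested sequences. The filter asks for fewer counts in the small knockout libraries (3.06 to 4.16) than in the control libraries (15.8 to 52.1), which lets in members that are high in the knockout, so these counts describe the 19 members only. By variant, the 10 that rose were all 6 tested members with T20C, all 3 tested with T27C alone and the 1 tested with C6T, while the 5 tested members that match n-TVcac9 gave the 1 call lower and the 4 tested with G26A gave none. With library totals alone 14 members were called higher and 0 lower, and the 4 added were tRF_5_304, tRF_5_306, tRF_5_335 and tRF_5_370. The share of all tested sequences called was not computed for that scaling, under which their median log2 fold change was 2.15. The count of 14 is therefore not read as a result about the members.

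The members that match n-TVcac9 made up most valine reads in both groups but a smaller part in the knockout, at 70.3%, 64.4% and 80.0% of the valine count in the knockout libraries and 92.7%, 94.1% and 93.5% in the control libraries. The most abundant of all members, the 32-nt tRF_5_335, had 1068, 831 and 1931 counts in the knockout and 1362, 3705 and 2655 counts in the control. On the CPM scale the groups overlapped, at 10858 ± 5470 in the knockout and 15252 ± 8573 in the control (SD, n = 3 each), and tRF_5_335 did not pass (log2 fold change −0.49 with standard error 0.68, edgeR adjusted p = 0.64). Its sign depended on the scaling: it was 0.05 with upper-quartile scaling and 1.99 with library totals alone (edgeR adjusted p = 0.016). The 29-nt tRF_5_242, which ends 3 bases earlier, had 102, 132 and 227 counts in the knockout and 803, 1049 and 958 counts in the control. It fell to 1318 ± 637 CPM in knockout hearts, against 5361 ± 1709 CPM in control hearts (SD, n = 3 each), a log2 fold change of −2.02 with standard error 0.64 (adjusted p = 0.021 by edgeR) with no overlap between the groups. The call was lost with upper-quartile scaling (edgeR adjusted p = 0.086) and on dropping any of 4 libraries, namely control replicates 2 and 3 and knockout replicates 1 and 2 (adjusted p between 0.053 and 0.23 by edgeR). Scaled by library totals alone, its log2 fold change was 0.22.

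Set against each other inside a library, the 29-nt form was scarcer in the knockout whatever the scaling. There were 9.55, 15.9 and 11.8 counts of tRF_5_242 per 100 counts of tRF_5_335 in the knockout libraries and 59.0, 28.3 and 36.1 in the control libraries, so every knockout library lay below every control library. The 33-nt tRF_5_370, longer than tRF_5_335 by 1 base, was more frequent in the knockout, with 13.3, 18.4 and 11.9 counts per 100 of tRF_5_335 in the knockout and 5.07, 4.89 and 5.73 in the control, again without overlap. Taken alone, tRF_5_370 did not pass the test, at 142, 153 and 230 counts in the knockout and 69, 181 and 152 in the control (log2 fold change 0.90 with standard error 0.65, edgeR adjusted p = 0.34). Nor did the 31-nt tRF_5_306, with 71, 73 and 173 counts in the knockout and 95, 74 and 106 in the control (log2 fold change 0.81 with standard error 0.65, edgeR adjusted p = 0.39). Both were called higher with library totals alone (edgeR adjusted p = 0.0049 for tRF_5_370 and 0.018 for tRF_5_306). The 34-nt tRF_5_399, which ends on the first base of the anticodon, kept a like ratio to tRF_5_335 in 5 of 6 libraries: 3.37, 3.13 and 1.5 counts per 100 in the knockout and 3.08, 3.29 and 3.16 in the control.

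The 2 largest rises among the tested members, tRF_5_132 and tRF_5_112, were of members with T20C. Members with T20C took 17.3%, 23.4% and 12.2% of the valine count in the knockout libraries and 2.53%, 1.55% and 1.72% in the control libraries, or 351, 442 and 395 counts in the knockout against 65, 85 and 73 in the control, although the knockout libraries held fewer tRF counts in all. The 23-nt tRF_5_112 was the leading one in the knockout, with 115, 223 and 144 counts there and 12, 2 and 12 counts in the control. Its level was 1372 ± 554 CPM in knockout hearts and 47.4 ± 33.9 CPM in control hearts (SD, n = 3 each; log2 fold change 4.84 with standard error 0.81, edgeR adjusted p = 0.00064), and the groups were far apart. Its 24-nt form tRF_5_132 had 18, 19 and 10 counts in the knockout and 0, 2 and 0 in the control, 36.3-fold higher by scaled counts (95% counting interval from 9.51 to 309, adjusted p = 0.0019 by edgeR). Both calls held under each of 13 alternatives of scaling, filter, tool, block or left-out library.

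Of the 8 T20C members that end in the anticodon stem or loop, the 4 that passed the filter on low counts rose, with lower fold changes than tRF_5_112 and tRF_5_132. The other 4 were not tested: the 28-nt tRF_5_207 had 4, 12 and 1 counts in the knockout and 3, 5 and 5 in the control, and tRF_5_272, tRF_5_396 and tRF_5_397 had 0 to 2 counts in each library. Of the 4 tested, only tRF_5_332 reached the counts that the filter asks of each control library. The rest, like tRF_5_112 and tRF_5_132, passed through the knockout libraries alone, so the rises describe these members only. The 29-nt tRF_5_239 had 17, 17 and 31 counts in the knockout and 2, 5 and 2 in the control (log2 fold change 3.39 with standard error 0.80, edgeR adjusted p = 0.0038). The 31-nt tRF_5_303 had 33, 37 and 45 counts in the knockout and 10, 3 and 5 in the control (log2 fold change 3.33 with standard error 0.76, edgeR adjusted p = 0.0035). For the 33-nt tRF_5_367 there were 29, 34 and 39 counts in the knockout and 7, 4 and 14 in the control (log2 fold change 2.57 with standard error 0.78, edgeR adjusted p = 0.017). In all of these the CPM of each knockout library exceeded that of each control library, and only tRF_5_367 lost its call under an alternative, with no filter (edgeR adjusted p = 0.068). The 32-nt tRF_5_332, the most abundant T20C member of the control, stood at 977, 679 and 995 CPM in the knockout and 118, 387 and 232 CPM in the control, with a log2 fold change of 1.85 with standard error 0.67 (adjusted p = 0.044 by edgeR). That call was lost under 7 of 13 alternatives, among them DESeq2's size factors (edgeR adjusted p = 0.067), no filter (0.32), the replicate block (0.061) and leaving out control replicate 3 or any 1 knockout library (0.087 to 0.14).

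The make-up by length of the T20C members also differed between the groups. The 23-nt form was 39.9% ± 9.33 of the T20C count in knockout hearts and 12.4% ± 8.78 in control hearts (SD, n = 3 each), and the 32-nt form 27.5% ± 9.69 in the knockout and 55.4% ± 17.4 in the control, with no overlap for either. Inside the libraries there were 89.1, 290 and 129 counts of tRF_5_112 per 100 of tRF_5_332 in the knockout and 42.9, 3.12 and 34.3 in the control. The spread was wide, with knockout replicate 2 highest and control replicate 2 lowest. Among the 4 members of 23 nt, all of them variants, T20C was carried by 92.1% ± 4.02 of counts in the knockout and 65.0% ± 21.8 in the control (SD, n = 3 each). No 23-nt sequence that matches n-TVcac9 is listed, so this is a share among variants only. The control share rests on 16, 5 and 15 counts of that length.

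Of the 5 members with T27C but not T20C, 3 passed the filter and all 3 rose. Their control counts lay below what the filter asks of each control library, so they passed through the knockout libraries alone, and the count of 3 supports nothing about the other lengths. The 32-nt tRF_5_334, which differs from the abundant tRF_5_335 by T27C alone, had 110, 113 and 93 counts in the knockout and 7, 30 and 15 in the control. It rose to 885 ± 96.5 CPM in knockout hearts, against 103.5 ± 76.0 CPM in control hearts (SD, n = 3 each; log2 fold change 3.10 with standard error 0.76, edgeR adjusted p = 0.0046), and the call held under all 13 alternatives. The 31-nt tRF_5_305 had 5, 12 and 20 counts in the knockout and 4, 0 and 2 in the control (log2 fold change 3.24 with standard error 0.89, edgeR adjusted p = 0.0094). The 33-nt tRF_5_369 had 7, 7 and 20 counts in the knockout and 1, 3 and 2 in the control (log2 fold change 3.01 with standard error 0.82, edgeR adjusted p = 0.0094). With these few counts, the calls of tRF_5_305 and tRF_5_369 were lost with no filter (edgeR adjusted p = 0.059 and 0.12) and without knockout replicate 3 (0.11 and 0.12), and neither was tested with a filter of 10 counts in 3 libraries. With any 1 control library left out, tRF_5_369 did not pass the filter and was not tested. The 29-nt tRF_5_241 did not pass the main filter, at 1, 6 and 13 counts in the knockout and 4, 8 and 4 in the control. With no filter its log2 fold change was 0.58, with standard error 1.004 and adjusted p = 0.72 by edgeR, and without knockout replicate 1 it was 1.66 with adjusted p = 0.30.

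Over all members that reach base 27, the share with T27C was 19.9%, 20.99% and 13.0% in the knockout libraries and 3.13%, 2.36% and 2.22% in the control libraries. In counts that is 372, 338 and 400 in the knockout and 80, 129 and 94 in the control. The difference was present at each of the 4 most abundant lengths. At 29 nt the share was 17.4% ± 1.35 in the knockout and 1.02% ± 0.282 in the control, and at 31 nt 34.1% ± 6.41 in the knockout and 8.07% ± 4.56 in the control (SD, n = 3 each). At 32 nt it was 15.6% ± 5.19 in the knockout and 2.36% ± 0.409 in the control, and at 33 nt 20.7% ± 0.676 in the knockout and 7.54% ± 3.47 in the control (SD, n = 3 each). At all 4 lengths each knockout library lay above each control library. Knockout replicate 3 was lowest of the knockouts at 32 nt, at 9.57% (95% Wilson interval 8.41% to 10.9%), against 2.70% (1.98% to 3.67%) in the highest control library, control replicate 1.

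Variants of equal length were then compared inside each library, as the log2 ratio of their counts with 0.5 added to each. This gave 23 pairs, 21 of which differ by 1 base, and pairs share members, so they are not independent. With 3 against 3 libraries the exact permutation test cannot go below p = 0.10, and the smallest adjusted value over the 23 pairs was 0.29. In 8 of the 23 pairs the groups did not overlap. No such share was computed for pairs outside the members. In CPM, another measure, the groups did not overlap in 43.7% of all tested sequences. The count of 8 is therefore not read as a result about the variants. The pair tRF_5_239 and tRF_5_242, which differ by T20C and T27C, stood furthest apart: the log2 ratio of tRF_5_239 to tRF_5_242 was −2.77 ± 0.20 in the knockout and −8.16 ± 0.52 in the control (SD, n = 3 each), a difference of 5.39 (exact two-sided permutation test, p = 0.10). This pair joins a member that rose with the 1 member that fell.

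For the 5 pairs that differ by T27C alone, the difference ran from 1.69 to 3.78 on the log2 scale and was towards the T27C member in the knockout in each, with no overlap in 4. The log2 ratio of tRF_5_334 to tRF_5_335 was −3.51 ± 0.77 in the knockout and −7.28 ± 0.31 in the control (SD, n = 3 each), and that of tRF_5_241 to tRF_5_242 was −4.84 ± 1.095 in the knockout and −7.39 ± 0.40 in the control (SD, n = 3 each). In tRF_5_244 and tRF_5_243, which both carry C6T, the log2 ratio of tRF_5_244 to tRF_5_243 differed by −2.68 (knockout minus control), again towards the member with T27C and without overlap. Each of these differences kept its sign when 1 was added to each count or any 1 library was left out. The 4 pairs that differ at base 20 alone, each with T27C in both members, took no common direction: the log2 ratio of the member without T20C to the member with it differed by −2.84 for tRF_5_241 over tRF_5_239 and by 1.42 for tRF_5_334 over tRF_5_332, both without overlap. At 31 and 33 nt that difference was −0.06 and 0.03, and the groups overlapped.

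The 4 pairs that differ by G26A had smaller differences, and the groups overlapped in all 4. The log2 ratio of tRF_5_333 to tRF_5_335 was −5.38 ± 0.18 in the knockout and −5.32 ± 0.13 in the control (SD, n = 3 each), a difference of −0.06 (exact two-sided permutation test, p = 0.60), and that of tRF_5_240 to tRF_5_242 was −5.58 ± 0.20 in the knockout and −5.40 ± 0.62 in the control (SD, n = 3 each; exact two-sided permutation test, p = 0.80). The sign of both small differences depended on which library was left out. At 31 and 33 nt the G26A differences were 1.41 and 0.35, with wide spread (exact two-sided permutation test, p = 0.40 and 0.80). Whether the T27C shift is larger than the G26A shift was not itself tested.

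None of the 4 tested members with G26A was called. Together the 7 members with G26A took 2.39% ± 0.420 of the valine count in knockout hearts and 2.95% ± 0.109 in control hearts (SD, n = 3 each), without overlap. The 32-nt tRF_5_333 had 28, 20 and 40 counts in the knockout and 37, 91 and 61 in the control and did not pass (log2 fold change −0.57 with standard error 0.71, edgeR adjusted p = 0.59). The 29-nt tRF_5_240, named after its values were seen, had 2, 2 and 4 counts in the knockout and 17, 39 and 15 in the control. It did not pass the main filter, which asks for more counts in control libraries, but with no filter its log2 fold change was −2.91 with standard error 0.93 (adjusted p = 0.028 by edgeR), and with 10 counts in 3 libraries −2.37 with standard error 0.79 (adjusted p = 0.022 by edgeR). In the fits without 1 knockout library it passed the filter but not the test (adjusted p between 0.064 and 0.16 by edgeR). DESeq2 gave it an adjusted p of 0.040, and the authors' deposited adjusted p was 0.0504 (DESeq2). Against tRF_5_333 it stood at 7.14, 10 and 10 counts per 100 in the knockout and 45.9, 42.9 and 24.6 in the control, without overlap. The other tested G26A members, of 28, 31 and 33 nt, had log2 fold changes of −0.98, 1.44 and 0.21 and none passed (edgeR adjusted p = 0.36, 0.22 and 0.90).

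The start with C6T was rare, at 2.56%, 2.01% and 1.32% of the valine count in the knockout libraries and 1.01%, 0.402% and 0.494% in the control libraries. Of its 16 members only the 23-nt tRF_5_114 passed the filter, with 10, 9 and 11 counts in the knockout and 2, 0 and 0 in the control, 23.2-fold higher by scaled counts (95% counting interval from 5.88 to 200, adjusted p = 0.0023 by edgeR). It passed through the knockout libraries alone. The 23-nt tRF_5_112 and tRF_5_114, which differ by C6T and by T20C, both rose, and the log2 ratio of tRF_5_114 to tRF_5_112 was −3.89 ± 0.59 in the knockout and −3.10 ± 1.34 in the control (SD, n = 3 each; exact two-sided permutation test, p = 0.40). The 23-nt form made up 22.8% ± 3.26 of C6T counts in the knockout and 2.56% ± 4.44 in the control (SD, n = 3 each), and the 32-nt forms 23.9% ± 4.64 in the knockout and 47.5% ± 14.5 in the control, both without overlap. The control shares rest on only 26, 22 and 21 C6T counts. At 23 nt the 95% Wilson intervals overlapped, at 10.8% to 31.9% in knockout replicate 1 and 2.14% to 24.1% in control replicate 1. At 32 nt they overlapped too, at 16.8% to 40.3% and 16.5% to 50.0% in the same libraries. In the 5 single-base C6T pairs the differences ran from −1.73 to 1.54 and the groups overlapped in all 5.

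The start with G7C and the smallest variants gave little. Its 6 members had 7, 6 and 2 counts in the knockout libraries and 3, 8 and 6 in the control libraries, none passed the filter, and the 32-nt tRF_5_331, with the log2 ratio to tRF_5_335 at −9.52 ± 2.12 in the knockout and −9.69 ± 0.44 in the control (SD, n = 3 each), showed no difference beyond the spread. The 2 members with T22G had 4 counts in all. The member that differs at the first anticodon base alone, tRF_5_398 with C34A, had 9, 2 and 0 counts in the knockout and 2, 7 and 19 in the control, and its log2 ratio to tRF_5_399 overlapped between the groups (exact two-sided permutation test, p = 1.0).

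By length over all members, a larger share of the valine reads listed ended before the anticodon stem in knockout hearts. A smaller share ended at 27 to 29 nt, early in that stem. Fragments of 21 to 26 nt made up 7.64%, 14.8% and 5.35% of the valine count in the knockout libraries and 0.738%, 0.146% and 0.376% in the control libraries. Fragments of 27 to 29 nt made up 7.54%, 9.84% and 9.20% in the knockout and 33.2%, 20.8% and 24.1% in the control. Against their 32-nt forms, tRF_5_242, tRF_5_240 and tRF_5_241 of 29 nt were scarcer in the knockout, without overlap. The 29-nt T20C member went the other way. Per 100 counts of tRF_5_332, tRF_5_239 had 13.2, 22.1 and 27.7 in the knockout and 7.14, 7.81 and 5.71 in the control. As a share of all T20C counts, tRF_5_239 overlapped between the groups. Those of 30 to 32 nt overlapped, at 70.2% ± 6.47 in the knockout and 67.5% ± 6.03 in the control (SD, n = 3 each). Those of 33 to 35 nt made up 11.7% ± 1.21 in the knockout and 6.07% ± 0.978 in the control (SD, n = 3 each), with no overlap. The mean length weighted by counts was 30.96 ± 0.450 nt in the knockout and 31.2 ± 0.249 nt in the control (SD, n = 3 each) and overlapped between the groups. These shares describe the chosen members and carry no test. The deposited sequences list no member under 29 nt that matches n-TVcac9, whereas variants are listed from 20 nt. At 28 nt the G26A member tRF_5_208 had 91 counts, and no matching member is listed. Why none is listed was not tested. Shares under 29 nt therefore cover variants only and do not show where reads that match the gene end. Of the 155, 279 and 174 counts of 21 to 26 nt in the knockout libraries, tRF_5_112 holds 115, 223 and 144.

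The remaining members are sparse: 22 of the 58 had fewer than 10 counts over the 6 libraries, 73 counts together. A count of 0 allows up to 3 counts, or 0.0923% to 0.159% of the valine count of a knockout library and 0.0548% to 0.117% of that of a control library. Among them are the shorter forms of tRF_5_112, such as tRF_5_84 of 21 nt with 3, 3 and 1 counts in the knockout and none in the control. A further short form, the 22-nt tRF_5_97, named after its values were seen, had 0, 10 and 5 counts in the knockout and none in the control. By scaled counts that is 7.73-fold higher when 3 counts are taken over the control group. This value leaves out the counting error of the knockout counts. The fragment tRF_5_97 did not pass the main filter. With no filter edgeR gave it an adjusted p of 0.033, and DESeq2 gave 0.049. The authors' deposited adjusted p for it was 0.062 (DESeq2). In the authors' deposited table, 37 members have an adjusted p, and 8 of these are higher and 1 lower in knockout at 0.05. The share over all sequences there was not computed, so these counts are not read as a result about the members.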

How the data were processed

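Small RNA of 6 mouse hearts, 3 knockout and 3 control, was sequenced and deposited as raw counts per fragment sequence, 1 column per mouse; the sources used here do not say how the authors combined the 4 technical replicates. The deposited normalized signal is the raw count over a library-wide size factor, and it was not used for tests. The authors' deposited table of comparisons holds a log2 fold change, a Wald score and a p-value per sequence. The build is mm10, and the tools listed are cutadapt 1.1.4, DESeq2 1.16.1 and Bowtie2 2.2.9, all per the submitters' processing notes.

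The members and the variant classes were chosen with earlier results of these data known. Raw counts were fitted with edgeR 4.0.16 in R 4.3.3 (quasi-likelihood test, TMM scaling, filterByExpr with a minimum count of 10, group as the sole term), and p-values were adjusted by Benjamini-Hochberg over all 254 sequences that passed. CPM use the TMM-scaled library total. Named are every called member, the 5 members with the highest mean CPM, and tRF_5_112, tRF_5_114, tRF_5_239 and tRF_5_242. Pairs have the same length, differ at 1 base and hold at least 10 counts each over the 6 libraries, plus the pairs tRF_5_239 with tRF_5_242 and tRF_5_112 with tRF_5_114, and were tested with the exact permutation test of SciPy 1.17.1. The alternatives were other scalings, other filters, DESeq2 1.42.0, a replicate block and leaving out each library. The labels do not say that the mice were independent litters, so p-values measure the spread between these 6 libraries. Wilson and exact intervals and the limit of 3 counts cover counting error only.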

Additional observations from a re-analysis of the deposited data

How the results depend on the processing

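Under the alternatives, 7 to 14 members were called higher, against 10, and the calls of tRF_5_112, tRF_5_132, tRF_5_239, tRF_5_303 and tRF_5_334 were kept in each of 13, and that of tRF_5_114 in each of the 12 that tested it. The count lower, 1, was 0 with library totals alone, 0 with upper-quartile scaling, 2 with no filter, 2 with at least 10 counts in 3 libraries, 2 with DESeq2, and 0 to 2 when 1 library was left out (0 on dropping control replicate 2, control replicate 3, knockout replicate 1 or knockout replicate 2). The count higher was 7 to 10 when 1 library was left out. For the alternatives the share of all tested sequences called was not computed, so these counts describe the members only. The log2 fold change of tRF_5_242 was 0.22 with library totals alone, and that of tRF_5_335 was 1.99 with library totals alone and 0.049 with upper-quartile scaling. The median over all tested sequences moved to 2.15 with library totals alone and 0.43 with upper-quartile scaling. The cause was not tested.

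With a replicate block 9 members were higher and 1 lower, and tRF_5_332 lost its call. The labels do not say that the replicate number marks a shared litter or day, so the numbers were not taken as pairs. Deviations from the group means of log2 CPM correlated at −0.0054, 0.289 and 0.0452 between same-numbered libraries. Between differently numbered libraries they correlated at −0.3 to 0.203. With 3 libraries per group these values cannot decide whether the numbers mark pairs.

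Without tRF_5_335, the shares of the valine count were 18.6% in the knockout and 1.01% in the control at 21 to 26 nt, 18.7% in the knockout and 66.3% in the control at 27 to 29 nt, 38.2% in the knockout and 16.5% in the control at 30 to 32 nt, and 24.5% in the knockout and 16.1% in the control at 33 to 35 nt.

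Of 161 pair alternatives 18 changed sign, in 8 pairs whose groups overlap. With 1 added to each count, the difference was 0.0060 for tRF_5_240 over tRF_5_242 and −0.11 for tRF_5_369 over tRF_5_367. With 1 library left out, it ran from −0.46 to 0.15 for tRF_5_240 over tRF_5_242, −0.60 to 0.35 for tRF_5_305 over tRF_5_303, −0.63 to 1.38 for tRF_5_331 over tRF_5_335 and −0.14 to 0.033 for tRF_5_333 over tRF_5_335. It ran from −0.042 to 0.39 for tRF_5_337 over tRF_5_335, −0.63 to 1.28 for tRF_5_368 over tRF_5_370, −0.37 to 0.72 for tRF_5_369 over tRF_5_367 and −1.23 to 0.74 for tRF_5_398 over tRF_5_399.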
